A study of Homo sapiens and Mus musculus with 15 samples.

Results

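T cells without Cd8 transcripts were followed in single-cell RNA-seq of the eye cups of old and young mice. They were chosen from measured values: a cell entered with at least 2 UMIs (unique molecular identifiers, each taken as 1 captured transcript) of Cd3d, Cd3e and Cd3g together, no UMI of Cd8a, Cd8b1 or Ncr1, at most 2 UMIs of C1qa, C1qb and C1qc, and less than 4% of its UMIs from the pigment epithelium genes Mitf, Rlbp1, Rpe65, Trpm3, Ttr and Tyr. This step followed a quality filter that asked for 200 or more detected genes, set a limit of 10% on mitochondrial UMIs and dropped any cell with a hemoglobin UMI. The rule took 343 of 15198 kept cells at 24 months and 32 of 15667 at 3 months, 375 of 30865 in all.

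Most T cells of the body carry an αβ receptor and either of the coreceptors CD4 or CD8, and the CD3 chains couple the receptor to signalling in all of them. A T cell without CD8 is therefore usually a CD4 helper or regulatory cell, but it may also be a γδ T cell, a mucosal-associated invariant T cell or another unconventional T cell, many of which carry neither coreceptor. Innate-like γδ T cells of the type 17 programme settle in mouse tissues early in life, carry the receptor for interleukin-23, and release interleukin-17A. In the healthy eye, T cells are held to be rare and to lie mainly in the choroid, the vascular layer behind the retinal pigment epithelium (RPE).

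The series holds 2 scRNA-seq libraries of C57BL/6J mice, 1 at 24 months and 1 at 3 months of age, and bulk RNA-seq that was not used here. The retina was taken out of the eye cups, and the remaining cells were released with papain and DNase and captured with 10x 5′ chemistry. Both samples are labelled as RPE, but kept cells also include stromal and immune cells, and the condition label of the 3-month sample reads old, so the groups follow the age label. With 1 library per age and the number of pooled mice not given in the sources used here, no difference between the ages was tested. All intervals are exact 95% intervals for counting error only, and the effects of age, animal, dissection and library cannot be told apart.

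The 24-month library had 17835 barcodes and the 3-month library 16463. The 15198 kept cells at 24 months held 82897938 UMIs and the 15667 at 3 months 89817876. The T cells without Cd8 transcripts had a median of 2900 UMIs (lowest 959, highest 17651) at 24 months and 4270 UMIs (lowest 1004, highest 13928) at 3 months, so the older cells were read less deeply. The libraries shared 381 barcodes, among them those of 7 of the 343 cells at 24 months and 1 of the 32 at 3 months. Stromal cells with no Cd3 or Ptprc UMI were used to read the level of free RNA, and they numbered 6276 (median 4253.5 UMIs) at 24 months and 9504 (median 5250 UMIs) at 3 months.

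The label was first set against receptor genes, which the rule did not use. A UMI of any receptor gene segment or constant gene was found in 328 of 343 cells (95.6%) at 24 months and in 31 of 32 (96.9%) at 3 months, whereas 3.1% and 3.0% of the stromal cells had one. NK cells had one in 48.2% and 59.4% and an αβ constant gene in 26.8% and 40.6%, and a β variable segment in 0 of 56 and 0 of 32. The constant genes of the αβ receptor, Trac, Trbc1 and Trbc2, were found in 164 cells (47.8%) at 24 months and 22 (68.8%) at 3 months, and a β variable segment in 217 cells (63.3%) and 24 cells (75%). A γδ receptor gene (Trdc, Trdv4, Tcrg-V4, Tcrg-V5, Tcrg-V6 or Tcrg-C1) was found in 131 cells (38.2%) at 24 months and 6 (18.8%) at 3 months, against 2.4% of the CD8 T cells at 24 months. Of the NK cells, 9 of 56 (16.1%) at 24 months and 8 of 32 at 3 months had such a γδ gene. Of the CD8 T cells at 3 months, 2 of 25 had one. The share at 3 months was thus not above that of NK cells, and alone it does not show γδ T cells there. By the receptor genes together, most of the cells are T cells, and γδ as well as αβ receptor transcripts occur among them. Of the marker genes, Cd3e had 974 UMIs at 24 months and 125 at 3 months and Cd3g had 1036 and 114, which the rule itself requires. Cd4, the third marker, was found in only 37 cells at 24 months and 10 at 3 months.

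At 24 months, 32 of the 343 cells had exactly 2 Cd3 UMIs, and 81.2% of these had a receptor transcript. The 76 cells with 1 Cd3 UMI, just outside, had one in 21.1%, while among the 214 cells with more than 5 Cd3 UMIs the share was 99.1%. At 3 months, 1 cell had exactly 2 Cd3 UMIs, 7 cells lay just outside with 1, and 27 of 32 had more than 5. On the Cd8 side, 85 cells at 24 months and 3 at 3 months were left out with a single Cd8 UMI. Of the other limits, 14 of the older cells had the 2 permitted C1q UMIs and 3 cells fell outside with 3, and 6 lay at 3 to under 4% pigment epithelium UMIs with 7 cells just outside at 4 to under 5%.

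T cells without Cd8 transcripts made up a larger share of the cells at 24 months than at 3 months. They were 2.26% (2.03 to 2.51) of kept cells at 24 months and 0.204% (0.140 to 0.288) at 3 months, a ratio of 11 (7.68 to 16.4). CD8 T cells, taken by the same rule but with a Cd8 UMI, numbered 826 and 25, or 5.43% and 0.160% of kept cells, a ratio of 34.1 (22.9 to 52.9). Natural killer (NK) cells, with Ncr1 and at most 1 Cd3 UMI, numbered 56 and 32 and differed by a ratio of 1.80 (1.15 to 2.88). As a share of all Cd3 cells, those without Cd8 transcripts were thus lower at 24 months, 29.3% (26.7 to 32.0) of 1169, against 56.1% (42.4 to 69.3) of 57 at 3 months. Their number was also set against that of cells with a UMI of Ptprc, which encodes the leukocyte antigen CD45. It came to 17.6% of 1953 at 24 months and 5.82% of 550 at 3 months. Not all of the T cells had a Ptprc UMI themselves, so this is a ratio of counts and not a share of those cells. A share of captured cells depends on what was dissected and on how many cells of other kinds were released, and these were not measured.

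**Figure D1:**
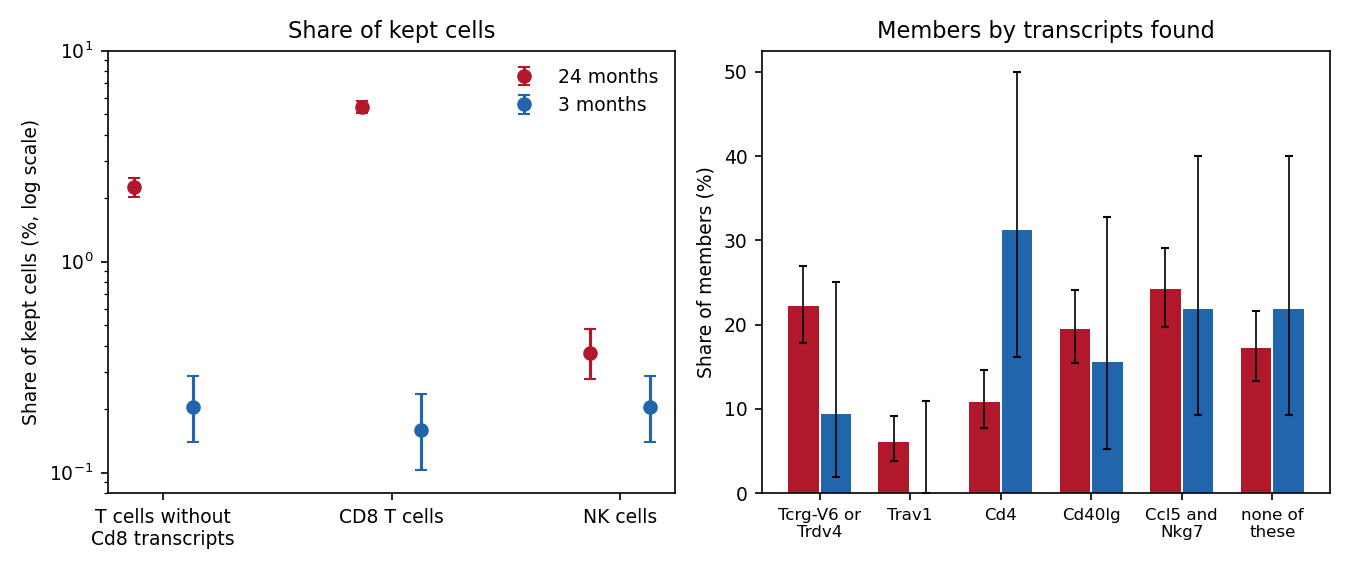
Left, share of kept cells (%, log scale) that were T cells without Cd8 transcripts, CD8 T cells or NK cells at 24 and 3 months, with exact 95% intervals; the first share was 2.26% against 0.204%. Right, share (%) of the T cells without Cd8 transcripts that fell into each of 6 sets by the transcripts found in them, with exact 95% intervals; cells with Tcrg-V6 or Trdv4 were 22.2% at 24 months against 9.38% at 3 months.

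A cell with CD8 on its surface can lack Cd8 UMIs by chance of capture, so the share of such cells was estimated. Among Cd3 cells at 24 months, 593 had UMIs of both Cd8a and Cd8b1, 59 of Cd8a alone and 174 of Cd8b1 alone; at 3 months these numbers were 16, 1 and 8. If both transcripts are missed independently at a given depth, 17.6 cells at 24 months would have neither, or 5.13% of the 343, and 1.0 cell at 3 months, or 3.12% of the 32. A zero-truncated Poisson fit to the Cd8 UMI counts gave 1.57% at 24 months and 0.050% at 3 months. A zero-truncated negative binomial, which lets cells differ in their Cd8 level, gave 13.6% (46.5 cells) and 4.02% (1.29 cells). These estimates miss CD8 cells that keep little transcript of both genes at once.

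A looser limit came from genes that nearly all CD8 T cells carried at 24 months. Nkg7, a granule protein gene of cytotoxic cells, was found in 37.9% of the T cells without Cd8 transcripts at 24 months and in 98.1% of the CD8 T cells, which would allow at most 38.6% of the 343 to be CD8 cells if missed cells carry Nkg7 as often. Ccl5, a chemokine of effector T cells, gave a ceiling of 40.4% in the same way. At 3 months the ceilings were 58.6% and 73.2%, from 32 and 25 cells. There Nkg7 was found in only 80.0% and Ccl5 in 64.0% of the CD8 T cells, so the ceilings rest on less common genes. Both ceilings, chosen after values had been seen, count as CD8 every CD4, γδ or NK-like T cell with these genes. The share that may be CD8 cells with missed transcripts at 24 months therefore ran, by method, between 1.57% and 40.4%, with 5.13% from the estimate fixed as the main one. At 3 months it ran between 0.050% and 73.2%.

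The share of Cd3 cells with no Cd8 UMI, true lack and missed transcripts together, was lowest in the deepest cells at 24 months. In quartiles of depth over the Cd3 cells at 24 months, with medians of 1978, 2723.5, 3385 and 5618 UMIs, 32.4%, 31.8%, 30.8% and 22.3% had no Cd8 UMI. At 3 months the shares were 60.0%, 35.7%, 78.6% and 50.0%, in no order, among 57 cells. When every cell was cut to 1000 UMIs and the rule applied again, it took 342 cells at 24 months, of which 115 (33.6%) had a Cd8 UMI at full depth. The 2-gene estimate at that depth was 26.4%, below the 33.6% counted, and at 3 months both were 13% of 23 cells.

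**Figure D2:**
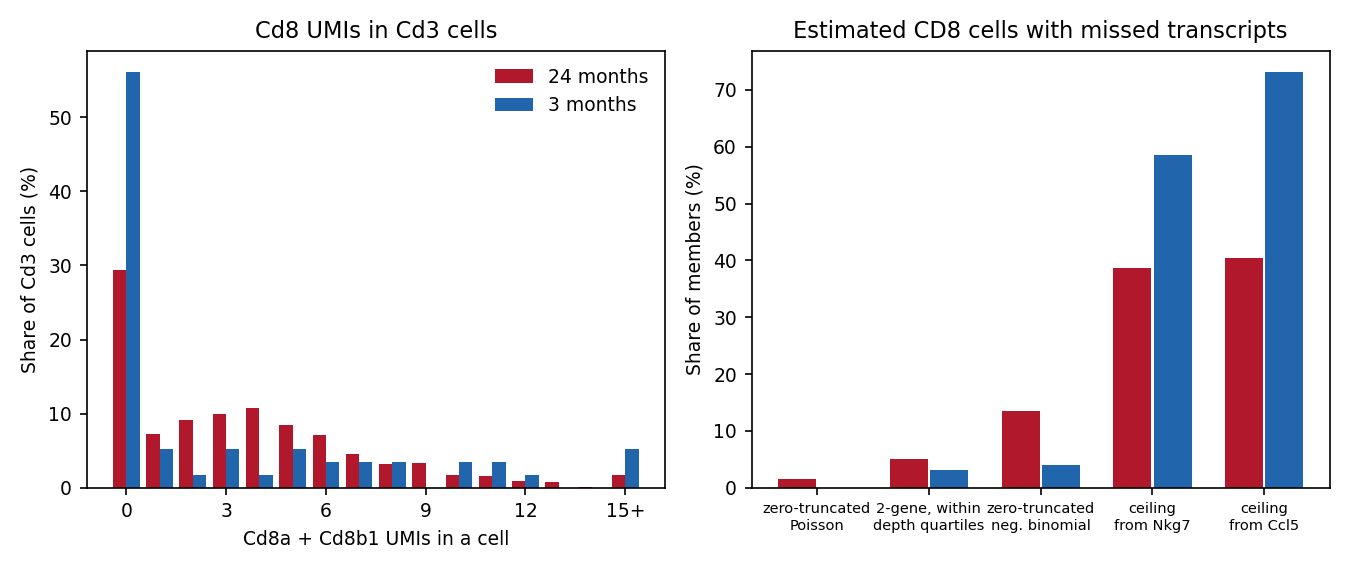
Left, share (%) of Cd3 cells by their number of Cd8a and Cd8b1 UMIs at 24 months (1169 cells) and 3 months (57 cells); cells at 0 are the T cells without Cd8 transcripts, 29.3% and 56.1%. Right, share (%) of the T cells without Cd8 transcripts estimated to be CD8 cells with missed transcripts by each of 5 methods, between 1.57% and 40.4% at 24 months.

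To describe what the cells were, each was put in the first of 6 sets that its transcripts allowed, in the order Tcrg-V6 or Trdv4, Trav1, Cd4, Cd40lg, both Ccl5 and Nkg7, and none of these. The sets were chosen after values had been seen, so the genes that define them are a description. At 24 months they held 76, 21, 37, 67, 83 and 59 cells, and at 3 months 3, 0, 10, 5, 7 and 7 cells. As a share of kept cells, the ratio of 24 to 3 months was 26.1 (8.60 to 129) for the set with Tcrg-V6 or Trdv4, 13.8 (5.63 to 43.9) for the set with Cd40lg, 12.2 (5.68 to 31.3) for that with Ccl5 and Nkg7, 8.69 (3.96 to 22.5) for the rest and 3.81 (1.86 to 8.60) for the set with Cd4. The interval of the highest of these ratios starts at about the value at which that of the lowest ends. These ratios are at full depth, where the younger cells had more UMIs. With every cell cut to 1000 UMIs, Cd4 was found in 19 older cells and 1 younger cell, and Trdv4 in 63 and 1. That the set with Cd4 has the lowest ratio is thus not shown at equal depth.

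The set with the highest ratio, which is defined by γδ receptor segments, also carried genes of the type 17 programme at 24 months. Tcrg-V6 and Trdv4, the γ and δ variable segments that pair in innate-like γδ T cells of mouse tissues, were found together in 69 cells at 24 months and 1 cell at 3 months, and either in 76 cells (22.2%, 17.9 to 26.9) and 3 cells (9.38%, 1.98 to 25). Tcrg-V6 had 275 UMIs in 75 cells at 24 months and 8 UMIs in 1 cell at 3 months, and 0 of 6276 and 0 of 9504 stromal cells had a UMI. Trdv4 had 510 UMIs in 70 cells at 24 months and 13 UMIs in 3 cells at 3 months. Trdv4 was also found in 9 of the 56 NK cells at 24 months and 8 of the 32 at 3 months, so alone it does not mark γδ T cells here. Trdc, the δ constant gene, was found in 13.1% (9.73 to 17.2) of the cells at 24 months and 9.38% (1.98 to 25) at 3 months, 7.33% and 6.25% with every cell cut to 1000 UMIs, a difference within counting error.

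Il17a, which encodes interleukin-17A, had 1006 UMIs in 74 of 343 cells (21.6%, 17.3 to 26.3) at 24 months and 2 UMIs in 2 of 32 cells (6.25%, 0.766 to 20.8) at 3 months. Summed over the cells this was 901 CPM (Il17a UMIs scaled to 1000000 UMIs of the cells) at 24 months and 13.5 CPM at 3 months, a ratio of 66.6 (18.4 to 551) that rests on the 2 UMIs at 3 months. The UMIs were unevenly spread, with a median of 5 in positive cells, 116 in the highest cell and 52.1% of all Il17a UMIs in 10 cells. Of the 1006 UMIs, 884 (87.9%) lay in the set with Tcrg-V6 or Trdv4, in which 54 of 76 cells (71.1%) had one. CD8 T cells at 24 months had 3.68 CPM of Il17a, and 6 of 6276 stromal cells (0.0956%) had a UMI, so free RNA was low. With every cell cut to 1000 UMIs, Il17a remained in 62 of 341 cells (18.2%) at 24 months and in 0 of 32 at 3 months, a count that by a floor of 3 counts allows a share of up to 9.38%.

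The same set at 24 months carried other genes of type 17 cells. Cd163l1, a scavenger receptor gene of γδ T cells, was found in 92.1% of the 76 cells and in none of the cells of the other sets. Blk, a Src-family kinase gene, was found in 68.4%, Tcrg-C1, a γ constant gene, in 69.7%, Il23r, the receptor for interleukin-23, in 38.2% and Sox13, a transcription factor gene of γδ T cells, in 34.2%. Cxcr6, a chemokine receptor of tissue-resident T cells, was found in 92.1%, Ramp1, a subunit of the receptor for the neuropeptide CGRP, in 89.5%, Il7r in 86.8%, the checkpoint receptor gene Pdcd1 in 64.5% and Tnfsf11, which encodes RANKL, in 61.8%. Of genes common to αβ T cells, Lck and Cd2 were found in 2.63% each and Cd28 in 1.32%, but Tcf7 in 19.7% and Cd5 in 15.8%, and 15 of the 76 cells (19.7%) had a UMI of a β variable segment. At 3 months the 3 cells of the set allow no such description. Ccl5, Nkg7 and Klrd1 were each found in 2 of them, and Tcrg-V6, Trdc, Cd163l1, Il17a and Il23r each in 1. The ratio of 26.1 for this set rests on these 3 cells.

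Trav1, the α variable segment of mucosal-associated invariant T cells, marked 21 cells at 24 months and 0 of 32 at 3 months, a count that by a floor of 3 counts allows a share of up to 9.38%. These cells also carried a β segment in 17 cases, which in 14 was of the Trbv13 or Trbv19 families, both known from such cells. Traj33, the joining segment of their receptor, had 0 UMIs at either age, so no invariant chain was identified. Icos was found in 95.2% of them, Ramp1 in 90.5%, Cxcr6 in 85.7%, Cd40lg in 76.2%, Blk in 38.1%, Zbtb16, which encodes PLZF, in 28.6% and Il17a in 23.8%. Trav1 was also found in 11 of 826 CD8 T cells (1.33%) at 24 months. The 67 cells with Cd40lg, the ligand by which helper T cells activate B cells and dendritic cells, and none of the earlier transcripts shared part of this pattern, with Icos in 83.6%, Cxcr6 in 71.6%, Ramp1 in 55.2%, Zbtb16 in 19.4% and Il17a in 13.4%.

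Cd4 was found in 10.8% (7.71 to 14.6) of the cells at 24 months and 31.2% (16.1 to 50.0) at 3 months, against 0.726% and 0 of the CD8 T cells and 0.255% and 0.463% of the stromal cells. This order did not hold at equal depth: cut to 1000 UMIs, 19 of 341 cells (5.57%) at 24 months and 1 of 32 (3.12%) at 3 months had a Cd4 UMI. Its summed level was 53.7 CPM at 24 months and 81.1 CPM at 3 months, a ratio of 0.662 (0.353 to 1.35), which does not exclude equal levels. Of the cells with Cd4, 1 at 24 months had a γδ receptor gene and 0 had Il17a, while 27 of 37 at 24 months and 9 of 10 at 3 months had a β segment. The older cells with Cd4 carried Cd2 in 73.0%, Icos in 70.3%, Ccl5 in 59.5%, Gzmk in 45.9% and Ctla4 in 37.8%. The 10 younger ones carried Icos in 80.0%, Tcf7 in 70.0%, Lef1 in 50.0%, Ccl5 in 40.0% and Gzmk, which encodes granzyme K, in 10.0%. Cd4 transcripts are few in each cell, and a cell without one is not shown to lack CD4.

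Foxp3, the transcription factor gene that defines regulatory T cells, was found in 0 of 343 cells at 24 months, which allows a share of up to 0.875% of cells with a UMI by a floor of 3 counts (exact 95% limit 1.07%), and in 0 of 32 at 3 months, which allows up to 9.38% (exact limit 10.9%). Over all kept cells it had 19 UMIs in 18 cells at 24 months and 30 UMIs in 30 cells at 3 months. No regulatory T cell was thus seen by this gene at this depth.

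The 83 cells at 24 months with both Ccl5 and Nkg7 and none of the earlier transcripts shared these genes with most CD8 T cells, of which 776 of 826 (93.9%) carried both. They had Lck in 65.1%, the checkpoint receptor gene Tigit in 50.6%, Gzmk in 44.6%, Cxcr3 in 39.8%, Eomes, a transcription factor gene of cytotoxic and memory T cells, in 38.6% and Klrd1, which encodes CD94, in 33.7%. Il17a was found in none of them. At 3 months 7 cells fell in this set, and 16 of 25 CD8 T cells (64.0%) carried both genes. How many of these cells are CD8 cells with missed transcripts was not tested beyond the estimates above.

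**Figure D3:**
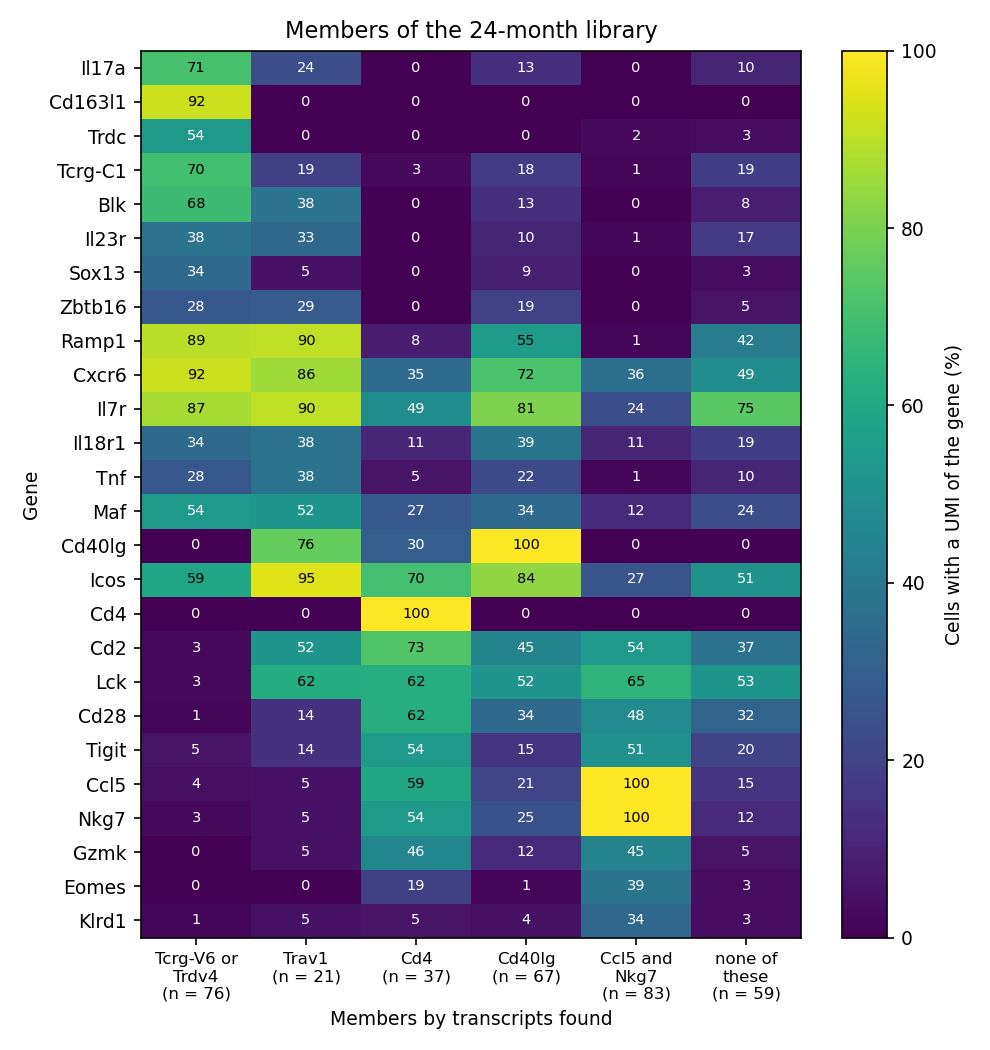
Share (%) of the cells of each set at 24 months with a UMI of each of 26 genes; columns are the 6 sets by transcripts found (76, 21, 37, 67, 83 and 59 cells), and the genes that define a set are at 100% by construction. Il17a is at 71.1% in the set with Tcrg-V6 or Trdv4 and at 0% in the sets with Cd4 and with Ccl5 and Nkg7.

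The β variable segments were spread over many genes at both ages. Of 35 segments in the files, 20 were seen at 24 months and 13 at 3 months. The most frequent was Trbv13-2, in 18.9% of the 217 cells with a segment at 24 months and 37.5% of the 24 at 3 months. Trbv13-3 followed in 12.9% and in 0, Trbv19 in 12% and 16.7%, and Trbv1 in 11.5% and 12.5%. Trbv26 was found in 0 of the older cells and in 16.7% of the younger, which are 4 cells. Segments of the Trbv12 and Trbv13 families resemble each other, and reads may be shared between them. No receptor was assembled, so clones were not counted.

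Compared with the CD8 T cells of the same library, the T cells without Cd8 transcripts at 24 months had their highest ratios in γδ genes. Tcrg-V6 had 275 UMIs against 2 in CD8 T cells, a ratio of 368 (101 to 3052), Trdv4 510 against 6, a ratio of 227 (104 to 622), Cd163l1 a ratio of 33.0 (21.3 to 53.5) and Tcrg-V4 a ratio of 29.4 (11.9 to 94.2). Ly6g5b, a gene of the Ly6 family, was found in 20.7% against 0.969% (ratio 34.8, 17 to 82.7), and Pxdc1, which encodes a PX domain protein, in 34.1% against 2.42% (ratio 24.2, 16.8 to 36.1). Of the 6 genes with the lowest ratios, Nkg7 had a ratio of 0.273 (0.250 to 0.297), the chemokine gene Ccl4 of 0.229 (0.182 to 0.286), Klrd1 of 0.212, Samd3 of 0.200, Plek, a signalling gene of many blood cells, of 0.224, and Nod1, an innate sensor gene found in 4.45% of the stromal cells at 24 months too, of 0.134. At 3 months the log2 ratio of Nkg7 was -0.70 (-1.02 to -0.38), in the same direction. The rule separates both cell sets by their Cd8 transcripts, so genes that go with Cd8 follow in part from it.

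Between the ages, 424 of 5773 genes found in at least 10% of the cells of either library were at least 2-fold higher at 24 months, which is 7.34%, and 600 were at least 2-fold lower, which is 10.4%. With the limit at 5% of cells these were 834 (9.58%) and 1184 (13.6%) of 8702 genes. The median log2 ratio over all genes was -0.13 at the limit of 10% and -0.11 at 5%. At 3 months 4 cells suffice to pass the limit of 10%, and 1414 genes passed only through that library. Of these, 492 were among the 600 lower genes and 4 among the higher, and 265 of the 424 higher genes passed only through the 24-month library. Of the 3909 genes that passed in both, 155 were higher and 108 lower.

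Of the genes with the largest increases, Il17a came first and several others were seen in few young UMIs. Tnf, which encodes tumour necrosis factor, had 84 UMIs in 53 cells at 24 months and 1 UMI at 3 months (ratio 11.1, 1.94 to 445). Jaml, an adhesion molecule gene of γδ T cells and neutrophils, had 91 and 1 UMIs (ratio 12.1, 2.11 to 481), and Tcrg-C1 had 139 and 2 (ratio 9.21, 2.50 to 76.8). Avpi1 was found in 33.5% of cells at 24 months and 6.25% at 3 months (ratio 9.36, 3.16 to 45.8), AC149090.1 in 24.8% and 3.12%, and Cpq, a peptidase gene, in 13.4% and 3.12%. AC149090.1 was higher at 24 months in stromal cells too, with 30.0 CPM against 5.91 CPM.

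Other large increases lay in genes that other cells of the eye express. The smooth muscle genes Acta2 (866 UMIs at 24 months and 7 at 3 months) and Tagln (519 and 4) had 70.4% and 76.3% of their older UMIs in 3 cells, and stromal cells had 228 and 178 CPM at 24 months. The chaperone gene Cd74 of MHC class II had 192 and 3 UMIs, with 72.4% of the older ones in 3 cells. Serpina3n, a protease inhibitor gene, had 87 and 1 UMIs and stood at 358 CPM in stromal cells at 24 months, against 61.4 CPM at 3 months. The chemokine gene Cxcl2 had 129 and 2 UMIs, and its direction turned with every cell cut to 1000 UMIs and the rule applied again (log2 ratio -0.19). The part of RNA from other cells in these values was not tested.

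The 12 largest decreases were all of genes found in under 10% of the cells at 24 months, so they passed the limit through the 3-month library alone. Car2, a carbonic anhydrase gene, came first, with 1 UMI at 24 months and 10 at 3 months, 7 of them in 1 cell. Gzmb, which encodes granzyme B, had 48 UMIs in 11 cells at 24 months and 85 UMIs in 7 cells at 3 months (log2 ratio -3.74, -4.28 to -3.21), but 3 cells held 79.2% and 92.9% of them. Klrg1, an inhibitory receptor gene of effector cells, had 3 and 6 UMIs, and Klrb1c, which encodes NK1.1, 5 and 8 UMIs. Hist1h1b, a replication-dependent histone gene, had 7 and 13 UMIs and Timeless, a replication fork gene, 7 and 10. Lat2, an adaptor gene, had 3 and 7, Ano1, a chloride channel gene, 3 and 6, and Gm9725 2 and 4. For the genes named here, 3 cells held between 66.7% (Klrg1) and 92.9% (Gzmb) of the 3-month UMIs. Of the NK cells at 3 months, 84.4% had Klrb1c, 78.1% Gzmb, 37.5% Klrg1, 34.4% Lat2 and 28.1% Car2. Ano1, Hist1h1b, Gm9725 and Timeless were each found in at most 6.25% of them. Whether these decreases come from cells of NK type was not tested.

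Pmel, a melanosome gene, was found in 2.62% of the cells at 24 months and 56.2% at 3 months, almost as in stromal cells (4.29% and 57.4%), and a share at that level is read as background. Syt4 had 2 and 6 UMIs and Ednrb, the endothelin receptor gene of melanocytes, 0 and 8, a ratio of at most 0.0497 by the floor of 3 UMIs over the group. In stromal cells Ednrb was at 4.77 CPM at 24 months and 63.1 CPM at 3 months and Syt4 at 1.35 and 26.8 CPM, so both moved there in the same direction.

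**Figure D4:**
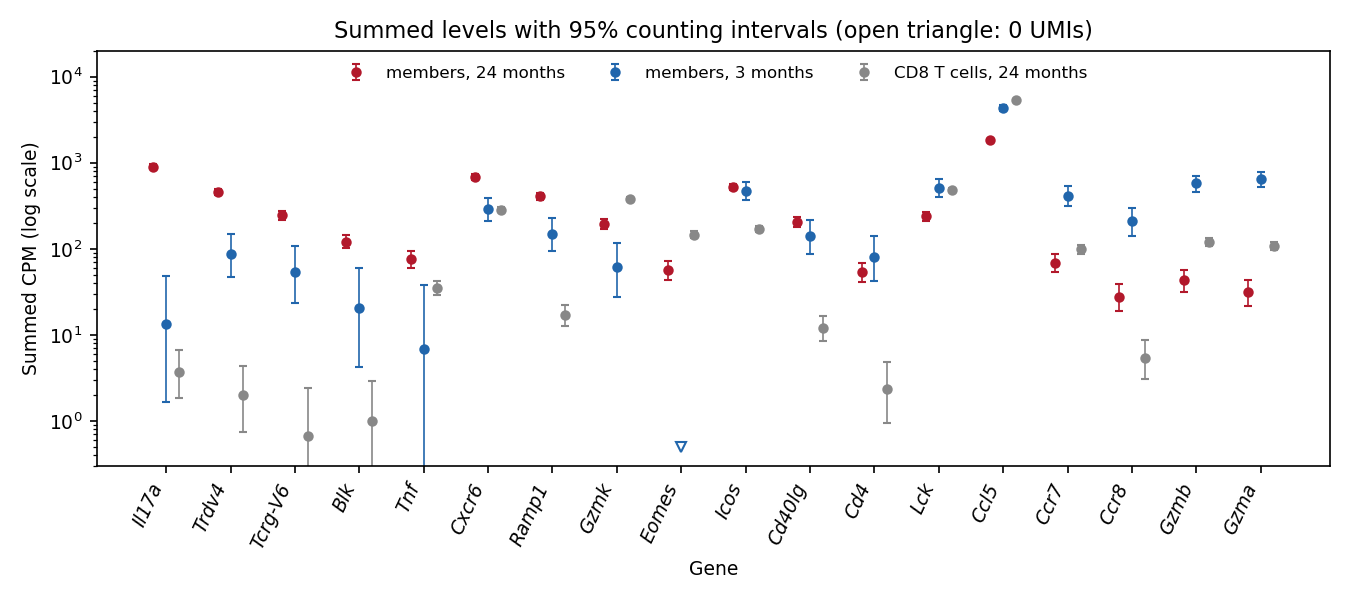
Level of 18 genes in CPM (log scale), from UMIs summed over the T cells without Cd8 transcripts at 24 and 3 months and over the CD8 T cells at 24 months, with exact 95% counting intervals and open triangles where a gene had 0 UMIs. Il17a is at 901 CPM in the older cells against 13.5 CPM in the younger, and Gzmb at 43.0 against 574 CPM.

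Gene lists were then read by their counts and medians, with a gene counted as higher or lower at a ratio of at least 2. Over all 8702 genes at the same limit of 5% of cells, 9.58% were higher and 13.6% lower, and the counts of a list are to be read against these shares. Of 18 measured γδ receptor and type 17 genes, 13 were higher and 0 lower (median log2 ratio 1.83), against 9.58% and 13.6% of all genes, led by Il17a, Tcrg-C1, 5830411N06Rik (60 and 1 UMIs) and Zbtb16 (54 and 1 UMIs, ratio 7.15, 1.23 to 288). Blk had a ratio of 5.96 (2.0 to 29.3), Trdv4 of 5.20 (3.01 to 9.83), Tcrg-V6 of 4.55 (2.28 to 10.7) and Il23r of 3.27 (1.08 to 16.2). Cd163l1, with 271 and 21 UMIs, had a ratio of 1.71 (1.10 to 2.81), and at 3 months its UMIs lay in 2 cells. Several of these genes are those by which the set with Tcrg-V6 or Trdv4 was described, so the list and that set are not separate evidence.

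Of 11 tissue residency genes, 3 were higher and 0 lower (median 0.37), set against 9.58% and 13.6% of all genes. Cxcr6 was at 683 CPM at 24 months and 291 CPM at 3 months (ratio 2.35, 1.73 to 3.28), Ramp1 at 408 and 149 CPM (ratio 2.75, 1.79 to 4.43) and Ramp3, a subunit gene of related peptide receptors, at 203 and 74.3 CPM (ratio 2.73, 1.50 to 5.55). The integrin gene Itga1 had a ratio of 1.68 (0.532 to 8.50), and its log2 ratio turned to -1.43 without the cells that held UMIs of other cell types. Genes of antigen-experienced cells had 1 of 14 higher, near the 9.58% of all genes, and 0 lower (median 0.31), the 1 being Il18r1, the interleukin-18 receptor gene, with a ratio of 3.18 (1.33 to 9.97). Crip1 had a log2 ratio of 0.69, S100a11 of 0.61 and Itgb1 of -0.72, and that of Crip1 turned to -0.078 without the cells that held UMIs of other cell types.

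Of 14 naive and lymph node homing genes, 4 were lower and 0 higher (median -0.80), set against 13.6% and 9.58% of all genes. Ccr7, the receptor that guides T cells to lymph nodes, was at 68.9 CPM at 24 months and 412 CPM at 3 months (log2 ratio -2.58, -3.08 to -2.07) and was found in 10.2% and 28.1% of cells, or 4.11% and 18.8% at 1000 UMIs. Nsg2 had a log2 ratio of -1.97, Lef1, a transcription factor gene of naive T cells, of -1.81 and Bach2 of -1.72. Among homing receptors, 3 of 19 were higher and 4 lower (median -0.42). Ccr8 had 31 UMIs at each age (log2 ratio -2.92, -3.68 to -2.15) and S1pr4 a log2 ratio of -1.85, while Ccr2, an inflammatory homing receptor, had a ratio of 2.73 (1.35 to 6.43) and Gpr183, the oxysterol receptor, of 2.08 (1.35 to 3.37).

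Of 18 type 1 and cytotoxic genes, 3 were higher and 5 lower (median -0.82), set against 9.58% and 13.6% of all genes. Gzma, which encodes granzyme A, was at 31.3 CPM at 24 months and 642 CPM at 3 months (log2 ratio -4.36, -4.96 to -3.78), and Klrg1 and Gzmb were lower as given above. Tbx21, which encodes T-bet, had a log2 ratio of -1.67 (-2.48 to -0.82), which turned to 0.43 at 1000 UMIs with the rule applied again. With the same cells thinned, Tbx21 was found in 3.52% at 24 months and 15.6% at 3 months, with overlapping intervals. Ccl5 was at 1812 CPM at 24 months and 4297 CPM at 3 months (ratio 0.422, 0.385 to 0.462) and Nkg7 at 513 and 986 CPM. The log2 ratio of Nkg7, -0.94, turned to 0.26 at 1000 UMIs with the rule applied again. In that setting, 115 of the 342 older cells had a Cd8 UMI at full depth. With the same cells thinned, Nkg7 was found in 27.9% at 24 months and 37.5% at 3 months, with overlapping intervals. In contrast, Gzmk had 216 UMIs at 24 months and 9 at 3 months (ratio 3.18, 1.64 to 7.05), and Eomes had 63 and 0, at least 2.78-fold higher by the floor of 3 UMIs over the group. By UMIs summed at full depth, granzyme K and Eomes were thus higher in the older cells while granzymes A and B were lower. Of the Gzmb UMIs at 3 months, 3 cells held 92.9%. Cut to 1000 UMIs, Gzmk was found in 13.2% of cells at 24 months and 9.38% at 3 months. Eomes was found in 4.40% and 0 and Gzmb in 1.76% and 9.38%. For each of these 3 genes the intervals of the thinned shares overlap.

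Cytokine genes had 3 of 15 higher and 3 lower (median -0.21). Il17a and Tnf led the higher ones, and Il2, with 5 and 4 UMIs, and Xcl1, at 132 CPM at 24 months and 520 CPM at 3 months, the lower ones. Xcl1 turned to a log2 ratio of 0.71 at 1000 UMIs, and the median of the list turned positive under 5 of the alternatives, so no direction was read from it. Ltb, which encodes lymphotoxin β, had a ratio of 1.67 (1.27 to 2.23). Cytokine receptor genes had 2 of 20 higher and 6 lower (median -0.41, and 0.013 at 1000 UMIs), with Il12rb2, the interleukin-12 receptor gene of type 1 cells, at -3.38 on the log2 scale, Il6ra at -1.46, Il10ra at -1.45 and Il18r1 higher.

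Of 8 helper genes, 0 were higher and 2 lower (median -0.21), namely the ganglioside synthase gene St8sia1 (6 and 4 UMIs) and Tnfrsf4, which encodes OX40 (log2 ratio -1.92, -2.86 to -0.92). The log2 ratio of Cd200 was 0.61 and that of Cd4 -0.59, each with an interval that includes 0, and that of Cd200 turned to -2.89 at 1000 UMIs. Of 8 measured regulatory genes of 14 listed, 2 were higher, Tigit (ratio 2.58, 1.28 to 6.09) and Il2ra (ratio 2.41, 1.07 to 6.70), and 2 lower, Ccr8 and Izumo1r (median -0.73, and 0.086 without the cells that held UMIs of other cell types). Il2ra encodes the high-affinity chain of the interleukin-2 receptor. At 24 months it was found in 40.8% of the set with Tcrg-V6 or Trdv4, 47.6% of that with Trav1 and 26.9% of that with Cd40lg. Only Ccr4 and Gata3 of the type 2 genes could be valued, at -2.33 and -0.69 on the log2 scale (median -1.51).

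Checkpoint and follicular helper genes had 2 of 12 higher and 3 lower (median 0.37, turning to -0.18 at 1000 UMIs and to -0.075 as a mean over cells). Tigit and Pdcd1 (ratio 2.25, 1.26 to 4.43) were the higher ones, and Bcl6, Cd160 and Entpd1 had log2 ratios of -1.59, -1.33 and -1.22. Of 20 receptor signalling genes, 2 were lower and 0 higher (median -0.40), the kinase gene Lck (ratio 0.467, 0.361 to 0.611) and the adhesion receptor gene Cd6 (0.443, 0.283 to 0.716). Sit1, an adaptor gene, was at 0.85 on the log2 scale. At 24 months Lck was found in 2.63% of the set with Tcrg-V6 or Trdv4 and in 52.2 to 65.1% of the other sets.

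Of the 12 proliferation genes that could be valued, 6 were lower and 0 higher (median -0.89), with Pclaf, Rrm2, Top2a and Tyms at -3.33, -3.09, -1.62 and -1.59 on the log2 scale. At 3 months Pclaf, Rrm2 and Top2a were each found in 2 of 32 cells, and the median turned to 0.12 among cells with a receptor constant gene, to 0.15 at 1000 UMIs and to 0.030 without the cells that held UMIs of other cell types. Transcription factor genes had 3 of 21 higher and 3 lower (median -0.15), with Zbtb16 first and Lef1, Tbx21 and Bcl6 after it. Immediate early genes, which dissociation can induce, had 1 of 19 higher and 1 lower (median 0.08), Egr2 at 2.25 and Hspa1b at -1.14 on the log2 scale, followed by Fosb at 0.58 and Egr1 at -0.48.

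**Figure D5:**
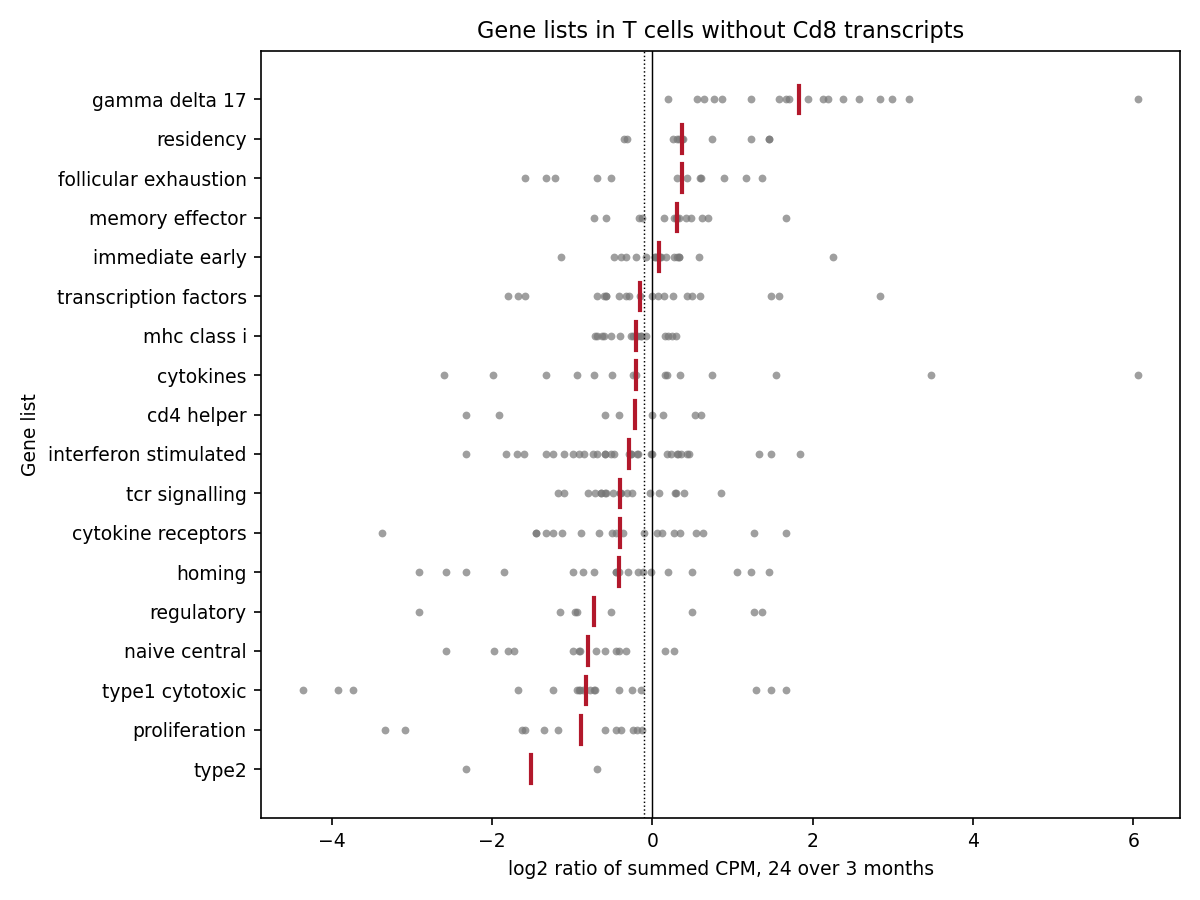
Log2 ratio of summed CPM, 24 over 3 months, of the genes of 18 lists in T cells without Cd8 transcripts; grey points are genes, red bars list medians, the solid line 0 and the dotted line the median over the 8702 genes found in at least 5% of cells (-0.11). The γδ receptor and type 17 list has the highest median, 1.83.

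Interferon-stimulated genes and MHC class I genes gave no shared increase at 24 months. Of 33 measured interferon-stimulated genes of 41 in the files, 3 were higher and 7 lower (median -0.30), with Ifi206 at -2.33, Gbp2, a GTPase gene, at 1.84, Slfn1 at -1.83 and Parp14 at -1.69 on the log2 scale. Of 17 MHC class I genes 0 were higher and 0 lower (median -0.20, and 0.013 at 1000 UMIs), with Psmb9, H2-Q4, Psmb10 and H2-T22 between -0.72 and -0.60. Bst2, which encodes the antiviral protein tetherin and was not on that list, was found in 34.4% of cells at 24 months and 50.0% at 3 months (ratio of CPM 0.831, 0.547 to 1.31), against 50.6% and 45.8% of the stromal cells. Ifi27 had a ratio of 0.868 (0.592 to 1.31), also with an interval that includes 1. At 1000 UMIs the log2 ratios of Bst2 and Ifi27 turned positive (0.19 and 1.39), so no direction was read. Ifi27 was found in 39.4% of cells at 24 months and 62.5% at 3 months, against 66.1% and 71.8% of the stromal cells. Both genes were thus frequent in stromal cells, and the part of free RNA in the T cell values was not tested.

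RNA of other cell types was present at both ages and differed between them. Of 10 macrophage genes, 2 (Fcgr1 and Pf4) were at 0 at 24 months and 4 at 3 months, and their sum was 2458 CPM and 1014 CPM in the T cells, against 4205 and 2813 CPM in stromal cells. Lyz2 was found in 77.8% of the cells at 24 months and 37.5% at 3 months, close to the 76.3% and 36.0% of stromal cells. The 8 RPE genes summed to 12240 and 5095 CPM, the 5 melanocyte genes to 120 and 716 CPM, the 6 mural genes to 1736 and 223 CPM and the 7 fibroblast genes to 2997 and 3520 CPM. All 5 neutrophil genes were at 0 at both ages. Of 8 B cell genes 7 were at 0 at 3 months, and the sums were 74.3 and 67.6 CPM. The part of this RNA in the gene differences was not tested, apart from the cells left out in the alternatives.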

How the data were processed

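Reads of the 10x 5′ v2 libraries were processed by the authors with Cell Ranger 6.0.1 (build mm10), and each library was deposited as a matrix of raw UMI counts over 32285 genes, beside tables of barcodes and of gene symbols and identifiers. The bulk tables, deposited by the authors as TPM, were not used, and 0 columns of no sample were found. The members, lists and tests were chosen with earlier results of these data known, and the sets by transcripts and the ceilings after values had been seen here.

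Cells were filtered as described above and counts were summed over the cells of a library. Ratios of CPM are 24 over 3 months, with exact conditional 95% intervals, shares have exact binomial and levels exact Poisson intervals. The intervals of ratios and levels take each UMI as a separate draw, so they do not cover the uneven spread of UMIs over cells. CD8 cells with missed transcripts were estimated in 4 strata of depth as the product of the cells with Cd8a alone and with Cd8b1 alone over those with both plus 1. The Poisson and negative binomial fits used the Cd8 UMI counts of cells with at least 1. For shares at equal depth, cells were thinned to 1000 UMIs, which left out 2 of the 343 older and 0 of the 32 younger cells. For log2 ratios, list medians and counts of genes at 1000 UMIs, the rule was applied again after thinning, so the cells were not the same. It then took 342 older cells, 115 of them with a Cd8 UMI at full depth, and 23 younger cells.

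Named genes are the 12 with the highest and the 12 with the lowest ratio among genes found in at least 10% of the cells of either library whose interval leaves out a log2 ratio of 0 (ribosomal and mitochondrial genes and V and J segments left out), the 4 genes with the largest ratio in each of 18 lists among those found in at least 5% of cells, and the 6 largest ratios each way against CD8 T cells. Other genes are named from the lists, and some genes that the rule names are not reported here. A gene with 0 UMIs in a library was set to the floor of 3 UMIs.

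Doublets were scored with Scrublet and kept. Its automatic threshold marked 4.81% of the cells at 24 months and 0.00638% at 3 months, so 0.184, the lower threshold, served for both libraries where doublets were removed as an alternative, and there 42 of the 343 older and 2 of the 32 younger cells were marked. Alternatives changed the Cd3 and mitochondrial limits, the hemoglobin step, the weighting of cells, the minimum level and the estimator, and left out cells with RNA of other types, with no receptor constant gene or with Ccl5 and Nkg7. Python 3.11.15, numpy 2.4.6, scipy 1.17.1, pandas 2.3.3, scanpy 1.11.5 and matplotlib 3.10.9 were used, and the code was tested on simulated data. No mouse genome was used, so no sequences or coordinates are given.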

Additional observations from a re-analysis of the deposited data

How the results depend on the processing

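No paired analysis was possible because each age has 1 library. The share of kept cells at 24 months, 2.26%, became 2.76% with 1 Cd3 UMI sufficing, 0.783% without cells that held UMIs of other cell types, 1.44% with only cells that had a receptor constant gene, 2.61% at 1000 UMIs per cell and 1.71% without the cells with Ccl5 and Nkg7. At 3 months the removal of cells with UMIs of other cell types took it to 0.0511%. Among cells with a receptor constant gene at 24 months, Cd4 was found in 6.85%, Trdc in 20.5%, Il17a in 30.6% and Tcrg-V6 or Trdv4 in 32.0%. When all cells were cut to 1000 UMIs and the rule applied again, these shares were 4.39%, 4.97%, 13.5% and 17.5%, and Cd4 was at 0% at 3 months. Without the cells with Ccl5 and Nkg7, Il17a was in 28.5% and Tcrg-V6 or Trdv4 in 29.2% of the older cells. Without cells that held UMIs of other cell types, Il17a, Tcrg-V6 or Trdv4 and the estimate of missed CD8 cells were at 0% at 3 months, where 8 cells were left. The estimate of missed CD8 cells, 5.13% at 24 months, was 26.4% at 1000 UMIs, where the counted share was also higher, 1.57% by the Poisson and 13.6% by the negative binomial fit, and had ceilings of 38.6% from Nkg7 and 40.4% from Ccl5. At 3 months, from 3.12%, these were 0.050% by the Poisson fit, 58.6% and 73.2%.

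The 424 higher genes became 172 at 1000 UMIs, 834 at the limit of 5% of cells and 854 with a minimum of 20 UMIs. The 600 lower genes became 1184 at the limit of 5% and 1663 without cells that held UMIs of other cell types, a setting that leaves few younger cells. At 1000 UMIs, with the rule applied again, the log2 ratio turned for Cxcl2 (-0.19), Nkg7 (0.26), Tbx21 (0.43) and Xcl1 (0.71). Without cells that held UMIs of other cell types it turned for Crip1 (-0.078) and Egr1 (1.01), and with only cells that had a receptor constant gene for Pclaf (0.078) and Top2a (0.27). List medians turned for regulatory genes (0.086), transcription factors (0.15), proliferation (0.030) and cytokines (0.47) without cells that held UMIs of other cell types. At 1000 UMIs they turned for checkpoint and follicular helper genes (-0.18), cytokines (0.060), cytokine receptors (0.013), MHC class I (0.013) and proliferation (0.15). With only cells that had a receptor constant gene, they turned for immediate early genes (-0.037) and proliferation (0.12). Immediate early genes also turned without the cells with Ccl5 and Nkg7 (-0.16), checkpoint genes as a mean over cells (-0.075), and cytokines with at least 1 (0.0030) or 3 (0.18) Cd3 UMIs and without Scrublet doublets (0.19). Among genes whose intervals include 0, Bst2 (0.19), Ifi27 (1.39), Ccl4 (1.13) and Cd200 (-2.89) turned at 1000 UMIs, Ccl4 with only cells that had a receptor constant gene (1.59), Cd200 (-1.08) and Bst2 (0.044) as a mean over cells, Cd200 without the cells with Ccl5 and Nkg7 (-0.13), and Itga1 (-1.43), Psmb10 (0.21) and Bst2 (2.03) without cells that held UMIs of other cell types. The cause of these changes was not tested. Of the shares, counts and estimates, 123 other values stayed inside the interval of the main value or, for counts of genes, near the main count. So did 1012 values for genes and lists, while 137 values for genes and lists moved outside it. With few younger cells many of these intervals are wide, so a value inside one can still differ much from the main value.

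The 32 younger cells limit every comparison: by a floor of 3 counts, a share of 0 there allows up to 9.38% (exact 95% limit 10.9%), and a gene with 0 UMIs up to 20.3 CPM (exact limit 24.9 CPM). The alternative without the cells with Ccl5 and Nkg7, the ceilings, and the shares of Il17a and of Tcrg-V6 or Trdv4 were chosen after seeing the data.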
